A study of Prunus persica with 18 samples.

Results

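The genes described here are those of the dormancy-associated MADS-box (DAM) locus of peach chromosome 1, taken as the consecutive identifiers PRUPE_1G531100 to PRUPE_1G531700. All 7 were rows of the count table, out of 26873 genes, and 5 of them had counts. RNA-Seq was carried out on axillary buds of the flat-nectarine cultivar Platinet 1, collected from field-grown trees on 3 dates counted in days from full bloom (DAFB): 45 (T1), 58 (T3) and 79 (T5). Apical and basal buds, excised from the upper and the lower part of the same shoots, were kept apart, for a total of 6 groups with 3 biological replicates each. Each library pooled buds of several shoots, and none of the 18 libraries came from a shoot sprayed with gibberellin, because sampling preceded spraying at each time. The labels name whole buds as the tissue, so that meristem, leaf primordia and bud scales cannot be told apart. Fewer cells of a type and less RNA per cell cannot be told apart either.

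DAM genes encode transcription factors of the MADS-box family that are related to Short Vegetative Phase (SVP), a floral repressor of Arabidopsis. In peach they lie side by side in a tandem array, and the evergrowing mutant, which carries a deletion in this array, keeps growing at its shoot tips and does not enter dormancy. DAM transcripts are known mainly from growth cessation, bud set and winter dormancy, and the copies of the array are known to differ in the season at which they peak. None of the identifiers matched the RefSeq gene table of the peach assembly, so that the copies are called by their identifiers, no DAM number is assigned to them, their lengths were not used, and no sequence is shown. The locus name therefore rests on the identifiers, and the levels of different copies are not compared with each other.

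Library depth was between 21114469 and 47286272 counts, and the median was 32404377.5. All replicate pairs differed by more than sampling noise, and apical T3 replicate 1, which stood apart from the other apical T3 libraries, was left out in turn for the main results on apical T3 buds. To a lesser degree, apical T5 replicate 1 also differed from the other apical T5 libraries. Its chi-square per gene against them was 52.4 and 32.3, and theirs against each other was 14.8. As a check on the tissue, the study's meristem genes were read in all 18 libraries. TFL1, a repressor of flowering in meristems, had between 202 and 1072 normalized counts, CEN, a close relative of TFL1, between 44.6 and 272, and AP1, a floral meristem identity gene, between 5.70 and 34.3.

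The 5 detected copies followed different courses between T1 and T5. PRUPE_1G531500 and PRUPE_1G531600 were the copies called as higher at T3 than at T1 in basal buds. PRUPE_1G531100, PRUPE_1G531600 and PRUPE_1G531700 were higher at T5 than at T3 in both types of buds. PRUPE_1G531400 was the copy with its highest mean at T3 and its lowest mean at T5 in both types of buds. No copy passed the test between apical and basal buds at any of the time points, and at most 9.15% of all tested genes did.

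PRUPE_1G531200 and PRUPE_1G531300 had 0 counts in each of the 18 libraries. With 609146815 counts in all, a count of 0 allows a level of up to 0.00492 CPM (counts scaled to library size) over all libraries together, and of up to 0.142 CPM in the shallowest library. Among all the genes of the table, 3023 (11.2%) had no count in any library. These limits cover counting error only. Reads that match near-identical copies could have been split or left out in the authors' counting, so that a count of 0 is not evidence that the copy was silent, and the counts of the other copies carry the same uncertainty.

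PRUPE_1G531100 stayed low until T3 and was high in all the T5 libraries. The apical libraries had 177, 172 and 242 normalized counts at T1, 492, 184 and 287 at T3, and 1567, 1550.2 and 1677 at T5. The basal libraries had 172, 177 and 155 normalized counts at T1, 182, 174 and 196 at T3, and 1653, 1631 and 1629 at T5. All T5 libraries were above all T1 and T3 libraries, the T3 and T1 libraries overlapped in both types of buds, and the highest T3 library was apical T3 replicate 1. Separate groups were common among all tested genes, in either direction. T5 and T3 did not overlap for 70.6% of them in basal and 57.3% in apical buds. The shares were 71.6% and 69.3% for T5 and T1, and 38.8% and 36.3% for T3 and T1. These shares apply to all copies below.

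Between T5 and T3, the level of PRUPE_1G531100 rose 8.90-fold in basal buds, or by 3.15 on the log2 scale (SE 0.077, adjusted p = 4.4e-10). In apical buds the log2 fold change was 2.29 (SE 0.30, adjusted p = 0.00018), and 2.73 without apical T3 replicate 1. Here and below, SE is the standard error, the log2 fold change is that of the later over the earlier time point and the adjusted p is that of the quasi-likelihood test of edgeR. Between T3 and T1, PRUPE_1G531100 did not pass the test in either type of bud, with log2 fold changes of 0.73 in apical buds (SE 0.30, adjusted p = 0.23) and 0.13 in basal buds (SE 0.085, adjusted p = 0.32). The apical value was 0.29 without apical T3 replicate 1.

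PRUPE_1G531700 was at or near the limit of detection at T1 and T3 and was detected in every T5 library. Its raw counts in apical buds were 5, 0 and 10 at T1, 8, 3 and 2 at T3, and 147, 85 and 73 at T5. In basal buds they were 2, 1 and 1 at T1, 0, 2 and 2 at T3, and 155, 119 and 116 at T5. Every T5 library was above every earlier library, and the gene passed the filter on low counts through the T5 libraries alone.

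Pooled over the replicates and scaled to depth, the counts of PRUPE_1G531700 in basal buds were 109 times as high at T5 as at T3 (390 against 4 counts). The exact 95% counting interval of this ratio was 42.1 to 401. In apical buds the ratio between T5 and T3 was 22.4 (305 against 13 counts, 95% counting interval 12.9 to 42.5). These intervals do not hold the spread between replicates. Without apical T3 replicate 1, which held 8 of the 13 counts, the apical ratio was 35.03 (14.8 to 109). Since the gene entered the fits through its T5 libraries, no p of its changes to T5 is given. Between T3 and T1 the counts were too few to show a change, with 13 against 15 in apical buds and 4 against 4 in basal buds.

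**Figure D1:**
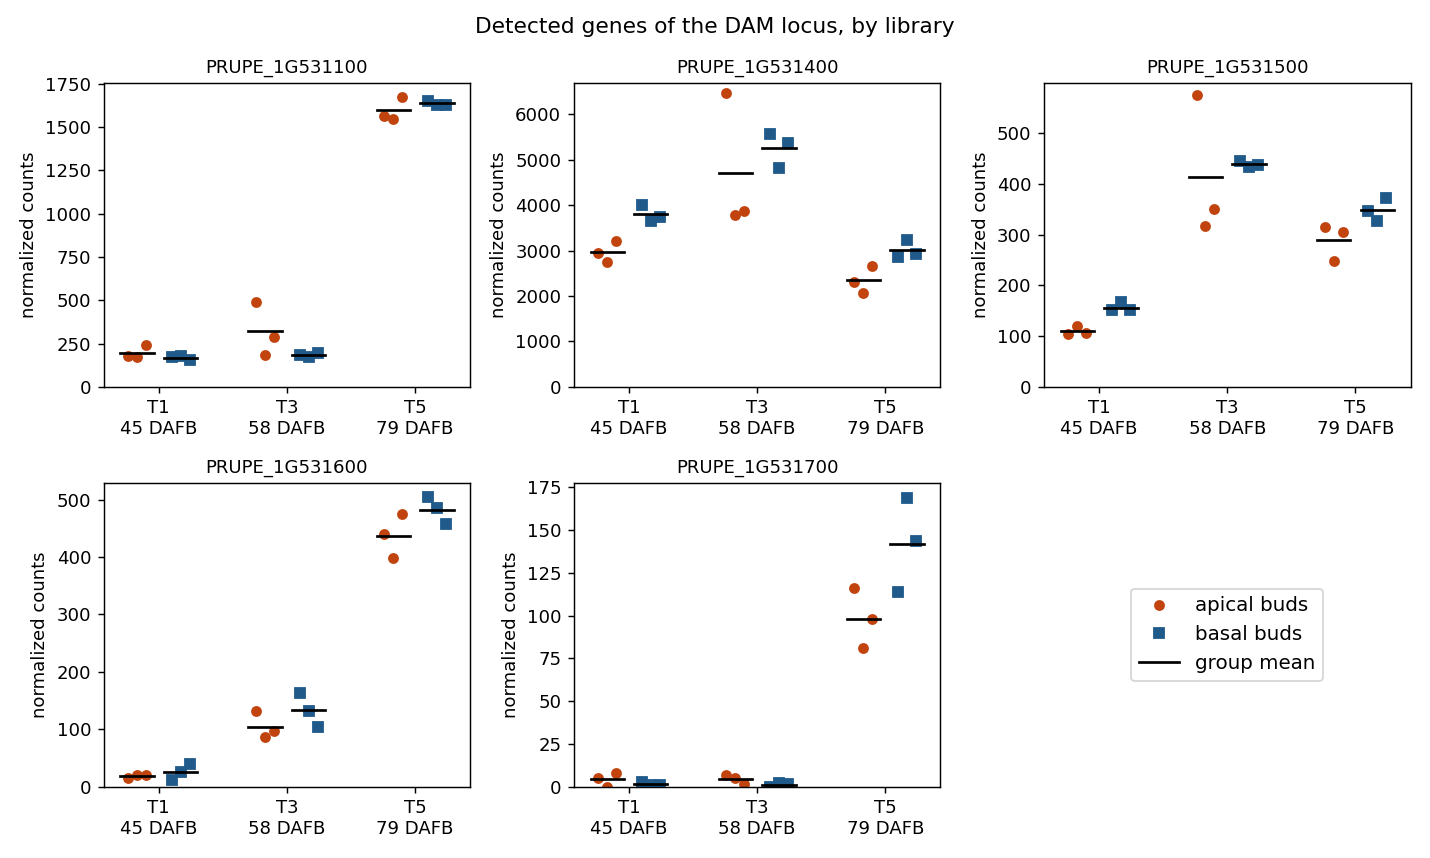
Normalized counts (vertical axis, linear from 0) of the 5 detected genes of the locus at T1, T3 and T5 in apical (circles) and basal (squares) buds, with 1 point per library and a black line for the mean of each group of 3. PRUPE_1G531100 and PRUPE_1G531700 are high at T5 alone, PRUPE_1G531600 has higher means at each later time, PRUPE_1G531500 is lowest at T1, and PRUPE_1G531400 has its highest means at T3.

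PRUPE_1G531600 was the copy that rose in both intervals. The apical libraries had 14.4, 20.4 and 20.1 normalized counts at T1, 131, 86.3 and 96.1 at T3, and 440.0, 398 and 475 at T5. The basal libraries had 12.1, 24.6 and 39.6 normalized counts at T1, 164, 132 and 104 at T3, and 504, 486 and 457 at T5. The 3 time points did not overlap in either type of bud.

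The log2 fold change of PRUPE_1G531600 between T3 and T1 was 2.53 in apical buds (SE 0.23, adjusted p = 0.0035) and 2.35 in basal buds (SE 0.28, adjusted p = 0.00043), or 5.79-fold and 5.08-fold. In the apical buds, leaving out any of the T1 libraries or T3 replicate 3 raised the adjusted p above 0.01, up to 0.041, and the log2 fold change in these 4 fits lay between 2.39 and 2.61. Without apical T3 replicate 1 it was 2.32, with an adjusted p of 0.0017. Between T5 and T3 the log2 fold change was 2.04 in apical buds (SE 0.19, adjusted p = 2.6e-05) and 1.87 in basal buds (SE 0.21, adjusted p = 9.4e-06). The apical value was 2.24 without apical T3 replicate 1. Over the whole interval from T1 to T5, the gene rose 23.8-fold in apical and 18.6-fold in basal buds.

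PRUPE_1G531500 differed most between T1 and the later times. The apical libraries had 105, 119 and 107 normalized counts at T1, 575, 318 and 350 at T3, and 315, 249 and 306 at T5. The basal libraries had 151, 166 and 151 normalized counts at T1, 446, 434 and 437 at T3, and 347, 327 and 373 at T5. All T3 and T5 libraries were above all T1 libraries, and all T5 libraries were below the T3 libraries of the same bud type. T5 and T3 libraries were also separate, in either direction, for 70.6% of all tested genes in basal and 57.3% in apical buds.

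In basal buds, PRUPE_1G531500 rose 2.81-fold between T1 and T3, or by 1.49 on the log2 scale (SE 0.092, adjusted p = 3.2e-05). In apical buds the log2 fold change was 1.93 (SE 0.23), above 2-fold, but the adjusted p was 0.014. Without apical T3 replicate 1 it was 1.61 with an adjusted p of 0.0017, and without apical T3 replicate 2 it was 2.09 with an adjusted p of 0.0068, so that both of these fits called the gene. Between T5 and T3 the log2 fold change was -0.53 in apical buds (SE 0.22, adjusted p = 0.069) and -0.33 in basal buds (SE 0.086, adjusted p = 0.0054), and the basal value, with its FDR below 0.01, did not reach 2-fold. The apical value was -0.21 without apical T3 replicate 1. Against T1, the T5 level was higher by 1.40 on the log2 scale in apical buds (SE 0.23, adjusted p = 0.00070) and by 1.16 in basal buds (SE 0.093, adjusted p = 6.5e-07).

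PRUPE_1G531400 was highest at T3 in both types of buds. The apical libraries had 2954, 2745 and 3213 normalized counts at T1, 6462, 3776 and 3882 at T3, and 2315, 2077 and 2652 at T5. The basal libraries had 3996, 3656 and 3745 normalized counts at T1, 5569, 4825 and 5364 at T3, and 2859.7, 3232 and 2932 at T5. Within each bud type, all T3 libraries were above all T1 libraries, and all T5 libraries were below all T1 libraries.

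In basal buds, the level of PRUPE_1G531400 differed by 0.47 between T3 and T1 (log2 scale, SE 0.070, adjusted p = 0.0014) and by -0.80 between T5 and T3 (SE 0.070, adjusted p = 1.5e-06). Both had an FDR below 0.01 and neither reached 2-fold. In apical buds the log2 fold change was 0.68 between T3 and T1 (SE 0.21, adjusted p = 0.16) and -1.02 between T5 and T3 (SE 0.21, adjusted p = 0.0026). These values were 0.38 and -0.71 without apical T3 replicate 1. With all libraries, the gene fell by just over the limit of 2-fold in the last interval. The value of -0.71 had an adjusted p of 0.00029 and was below 2-fold, and without T5 replicate 1 or 2 the adjusted p was 0.011 and 0.014. Between T5 and T1 the log2 fold change was -0.33 in apical buds (SE 0.21, adjusted p = 0.21) and -0.34 in basal buds (SE 0.070, adjusted p = 0.0012), below 2-fold in both.

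**Figure D2:**
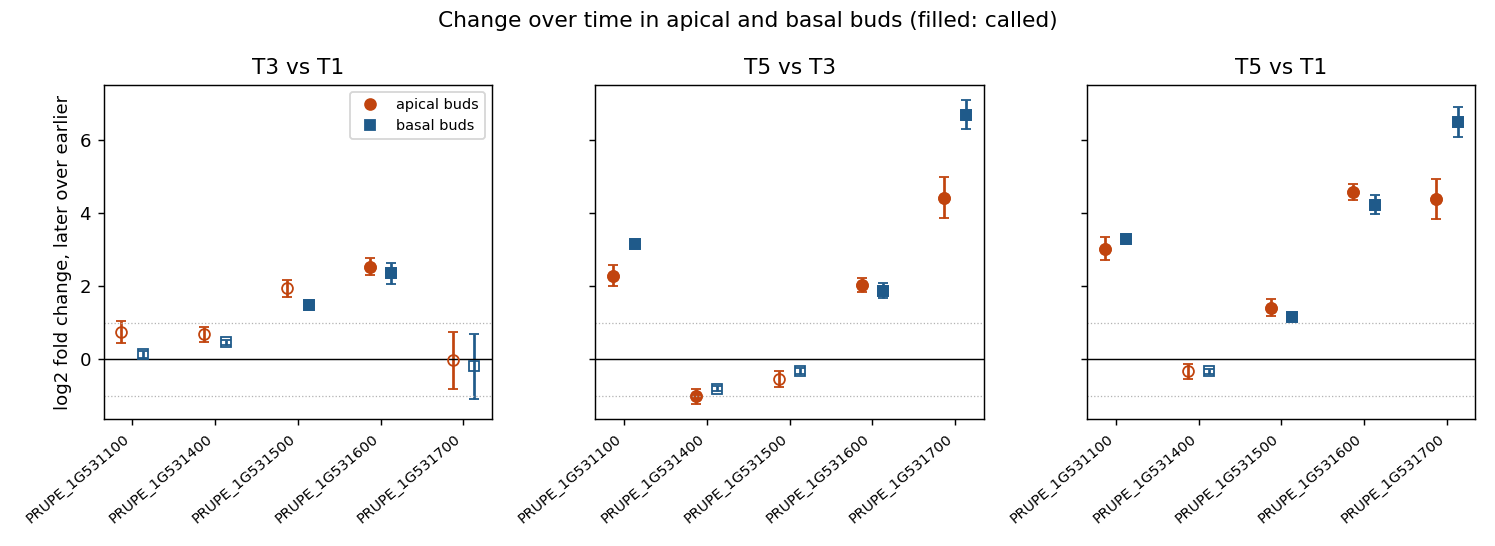
Log2 fold change of the later over the earlier time point (vertical axis) for the 5 detected genes, in apical (circles) and basal (squares) buds, with bars of 1 standard error. Filled symbols passed an FDR of 0.01 and a change of 2-fold, which is marked by dotted lines. PRUPE_1G531100 is not called between T3 and T1 and is called between T5 and T3, PRUPE_1G531700 was tested by virtue of its T5 level, and PRUPE_1G531400 is the gene below 0 between T5 and T1.

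The limits of the study (FDR of 0.01, 2-fold) were applied to the 5 copies that were tested. In basal buds, 2 of these 5 were higher at T3 than at T1, against 0.528% of 19304 tested genes. Between T5 and T3, 3 copies were higher in basal buds, against 8.55% of the tested genes. Between T5 and T1, 4 copies were higher in basal buds, against 9.48% of the tested genes. In apical buds, 1 copy was higher at T3 than at T1, against 0.056% of 19636 tested genes (11 genes, and 0 to 20 with each library left out). Between T5 and T3 in apical buds, 3 copies were higher and 1 was lower, against 8.67% and 12.1% of the tested genes. Between T5 and T1, 4 copies were higher in apical buds, against 9.51% of the tested genes. The contrasts within a bud type share libraries, and the count of copies includes PRUPE_1G531700, which was tested by virtue of its T5 level. Without it, 2 copies were higher between T5 and T3 and 3 between T5 and T1, in each type of bud.

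For comparison, the 6 other flowering regulators that the study names by identifier were read in the same fits. The list comprises FT, which promotes flowering, TFL1 and CEN, AP1, and the SPL9.1 and SPL9.2 genes of the SQUAMOSA promoter binding family. Part of it was chosen by the study on these samples, so that it is not independent evidence of a direction. Between T3 and T1, 0 of the 6 passed the test in either type of bud, against 1.05% of all tested genes in basal and 0.056% in apical buds. The unadjusted p was under 0.05 for TFL1 and CEN in basal buds and for FT and TFL1 in apical buds, as for 32% and 19.4% of all tested genes. In basal buds, TFL1 (log2 fold change 0.82, adjusted p = 0.0026) and CEN (-0.73, adjusted p = 0.0060) had an FDR below 0.01 and did not reach 2-fold. There 6.5% of all tested genes had an FDR below 0.01, whatever the fold. Between T5 and T3, 3 of the 6 were called lower in basal buds (CEN, SPL9.1 and SPL9.2) and 3 in apical buds (TFL1, SPL9.1 and SPL9.2). None was called higher, with 9% and 12.1% of all tested genes lower. In basal buds, TFL1 (log2 fold change -0.98, adjusted p = 7.1e-05) and FT (0.74, adjusted p = 0.0087) had an FDR below 0.01 and did not reach 2-fold. There 53.7% of all tested genes had an FDR below 0.01, whatever the fold. The median log2 fold change of the list between T5 and T3 was -1.11 in apical and -1.14 in basal buds, against 0.00055 and -0.024 over all tested genes. In apical buds the same 3 were lower, with a median of -0.97, when apical T3 replicate 1 was left out. Between T5 and T1 in apical buds, FT and AP1 were higher, with log2 fold changes of 1.19 and 1.29, as were 9.51% of all tested genes. SPL9.1 and SPL9.2 were lower there, with log2 fold changes of -1.84 and -1.99, as were 12.8% of all tested genes. Over the same interval in basal buds, CEN, SPL9.1 and SPL9.2 were lower and none was higher. There 9.96% of all tested genes were lower. Below 2-fold with an FDR below 0.01 between T5 and T1 were FT in basal buds (0.96, adjusted p = 0.00205) and TFL1 in apical buds (-0.81, adjusted p = 0.0073). Whatever the fold, 56.1% of all tested genes in basal and 35.6% in apical buds had such an FDR.

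Apical and basal buds were compared at each time point in a fit of all 18 libraries. No copy of the locus was called at T1, T3 or T5, and 4.91%, 9.15% and 1.2% of 19754 tested genes were. Only 5 copies were tested, so that 0 calls among them is near these shares and does not set the locus apart. DESeq2 also called 0 copies at each time. The unadjusted p was under 0.05 for 2 copies at T1 (PRUPE_1G531400 and PRUPE_1G531500), 1 at T3 (PRUPE_1G531100) and 1 at T5 (PRUPE_1G531400), as for 35.3%, 54.4% and 23.8% of all tested genes.

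The mean of PRUPE_1G531400 was lower in apical than in basal buds at every time point, with log2 fold changes of apical over basal of -0.35 at T1 (SE 0.16, adjusted p = 0.12), -0.16 at T3 (SE 0.16, adjusted p = 0.43) and -0.36 at T5 (SE 0.16, adjusted p = 0.18). The apical and basal libraries of this gene did not overlap at T1 and T5, as for 56.8% and 29% of all tested genes, and overlapped at T3. PRUPE_1G531500 had -0.50 at T1 (SE 0.18, adjusted p = 0.060), -0.075 at T3 (SE 0.17, adjusted p = 0.73) and -0.27 at T5 (SE 0.17, adjusted p = 0.37). PRUPE_1G531600 had values between -0.49 and -0.14, with overlapping libraries at all 3 time points. Without apical T3 replicate 1, the T3 values were -0.46 for PRUPE_1G531400 (adjusted p = 0.0017), -0.39 for PRUPE_1G531500 (adjusted p = 0.012) and -0.52 for PRUPE_1G531600 (adjusted p = 0.095), all below 2-fold.

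The largest difference among the well-counted copies was that of PRUPE_1G531100 at T3, where the apical libraries had 492, 184 and 287 and the basal libraries 182, 174 and 196 normalized counts. The log2 fold change of apical over basal was 0.82 (SE 0.23, adjusted p = 0.0092), below 2-fold, and the libraries overlapped. It was 0.39 (adjusted p = 0.061) without apical T3 replicate 1 and 1.08 (adjusted p = 0.00032) without apical T3 replicate 2, so that the apical libraries decided this value. At T1 it was 0.23 (SE 0.24, adjusted p = 0.52) and at T5 -0.036 (SE 0.21, adjusted p = 0.94). PRUPE_1G531700 had 15 against 4 counts at T1 and 13 against 4 at T3 in apical and basal buds, 5 of the 13 outside apical T3 replicate 1. Its log2 fold changes of 1.60 at T1, 1.74 at T3 and -0.52 at T5 did not pass the test, with standard errors of 0.89, 0.90 and 0.31. The apical and basal libraries of this gene overlapped at each time point. Scaled to depth, the pooled counts gave ratios of apical over basal of 3.25 at T1 (95% counting interval 1.04 to 13.5), 3.56 at T3 (1.1 to 15.0) and 0.73 at T5 (0.63 to 0.85). These intervals cover counting error only, not the spread between replicates, so that they show no difference between bud types.

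**Figure D3:**
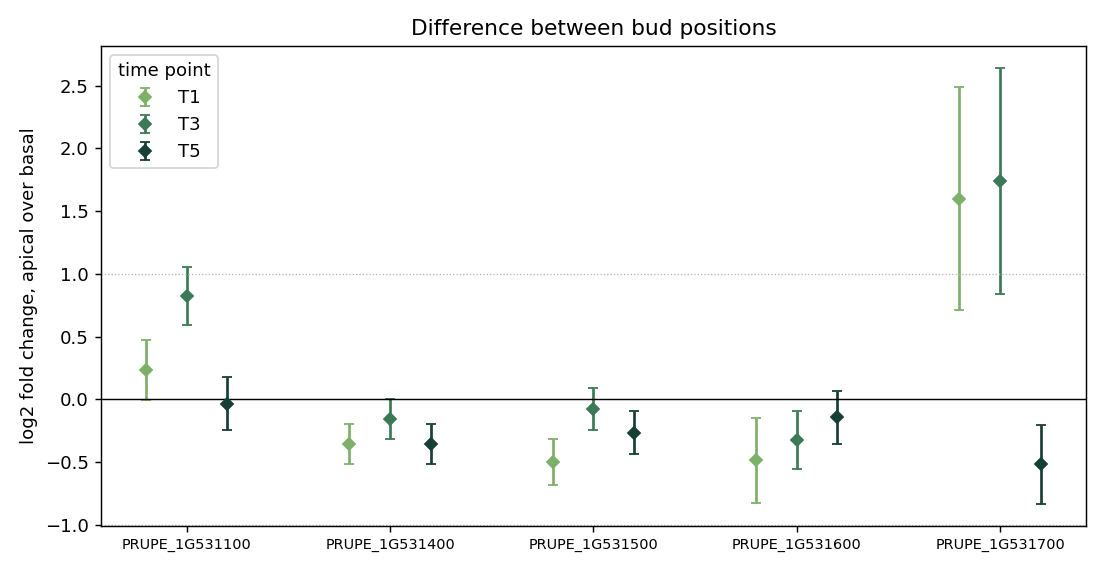
Log2 fold change of apical over basal buds (vertical axis) for the 5 detected genes at T1, T3 and T5, with bars of 1 standard error and a dotted line at 2-fold. The values of PRUPE_1G531400, PRUPE_1G531500 and PRUPE_1G531600 lie between -0.50 and -0.075, that of PRUPE_1G531100 at T3 is 0.82, and the wide bars of PRUPE_1G531700 at T1 and T3 belong to its low counts.

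Whether the copies changed differently over time in apical and basal buds was tested as the apical minus the basal log2 fold change. No copy was called in any of the 3 intervals by edgeR or by DESeq2. Between T1 and T3 the unadjusted p was under 0.05 for 0 copies and for 18.1% of all tested genes. Between T3 and T5 it was under 0.05 for 2 copies and 33.1% of the genes, and between T1 and T5 for 1 copy and 23.2%. PRUPE_1G531700 is counted in both of these intervals, and no value is read from it because it was tested through its T5 level. For PRUPE_1G531100 the difference from T3 to T5 was -0.86 (SE 0.31, adjusted p = 0.070). Without apical T3 replicate 1 it was -0.42 (adjusted p = 0.14). Without apical T3 replicate 2 it was -1.11 (adjusted p = 0.0052), which passed the test. Among all tested genes, 0.0658% were called between T1 and T3, 3.25% between T3 and T5 and 1.87% between T1 and T5.

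Because the depth of a library cancels when 1 copy is divided by another, the ratios of counts between copies were also read within each library. The size of such a ratio depends on the lengths of both genes, but its change between groups does not. The counts of PRUPE_1G531100 as a percentage of those of PRUPE_1G531400 had medians of 6.28%, 7.39% and 67.7% in apical buds at T1, T3 and T5, and of 4.32%, 3.60% and 55.6% in basal buds. All T5 libraries, from 50.5% to 74.6%, were above all earlier libraries, from 3.28% to 7.62%.

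The ratio of PRUPE_1G531500 to PRUPE_1G531400 separated all 3 time points. It was between 3.33% and 4.55% at T1, between 8.01% and 9.03% at T3 and between 10.1% and 13.6% at T5, with apical and basal libraries together. Apical T3 replicate 1, in which both genes were higher than in the other apical T3 libraries, had a ratio inside the T3 range. The ratio of PRUPE_1G531600 to PRUPE_1G531500 overlapped between T1 and T3 in basal buds and had medians of 155% in apical and 145% in basal buds at T5, against 27.2% and 30.4% at T3. That of PRUPE_1G531600 to PRUPE_1G531400 also separated all 3 time points. With both bud types together, it was between 0.304% and 1.06% at T1, 1.94% and 2.94% at T3, and 15.0% and 19.2% at T5. How many pairs of genes separate the time points in this way was not tested.

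**Figure D4:**
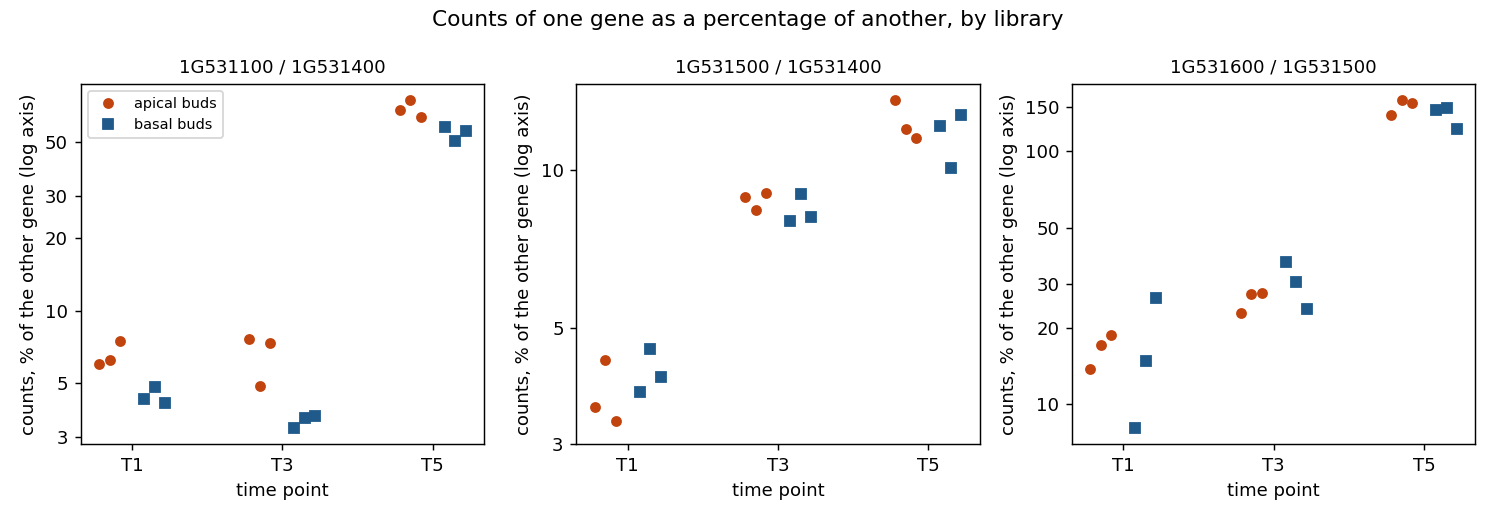
Counts of 1 gene as a percentage of those of another in each library (vertical axes on a log scale) at T1, T3 and T5, in apical (circles) and basal (squares) buds. The ratio of PRUPE_1G531100 to PRUPE_1G531400 is between 50.5% and 74.6% at T5 and at most 7.62% before, that of PRUPE_1G531500 to PRUPE_1G531400 is separate at each time point, and that of PRUPE_1G531600 to PRUPE_1G531500 is highest in the T5 libraries.

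The order of the 6 groups differed between the copies. For PRUPE_1G531600 the groups were ordered by time, with T1 below T3 and T3 below T5, and apical and basal buds of the same time overlapped. For PRUPE_1G531100 the T1 and T3 groups overlapped with their neighbours in the order, and the apical and basal T5 groups, which overlapped with each other, were separate from the rest. For PRUPE_1G531500 the order was apical T1, basal T1, apical T5, basal T5, apical T3 and basal T3, and the last 3 of these overlapped with their neighbours. For PRUPE_1G531400 the lowest group was apical T5 and the highest basal T3, and the neighbours that overlapped were apical T1 with basal T5, basal T1 with apical T3, and apical T3 with basal T3.

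Likeness between genes was read as Pearson's r on log2 CPM, as a description over 18 libraries that share time points and trees. Within the 6 libraries of a time point, PRUPE_1G531400 and PRUPE_1G531500 had an r of 0.80 at T1, 0.97 at T3 (0.96 without apical T3 replicate 1) and 0.79 at T5, against 0.43 over all libraries. At T1 and T5, all apical libraries of both genes were below all basal libraries. The r at these times therefore includes the difference between bud types and is not that of replicates alone. Other pairs of the locus had a higher r at T5. These were PRUPE_1G531100 with PRUPE_1G531600 (0.86), and PRUPE_1G531400 with PRUPE_1G531600 (0.85) and with PRUPE_1G531700 (0.85). How many pairs of genes reach such values in so few libraries was not tested. Outside the locus, the genes most like PRUPE_1G531400 were PRUPE_3G307800 and PRUPE_5G108900 (r of 0.964 and 0.962), and those most like PRUPE_1G531100 were PRUPE_3G209900 and PRUPE_1G420000 (r of 0.990 and 0.986). The files do not pair these identifiers with names.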

How the data were processed

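The RNA-Seq libraries were stranded mRNA libraries, sequenced by the authors on an Illumina NextSeq. Per the labels and the study's methods, reads were checked with FastQC, aligned to the peach genome with HISAT2 and assigned to public gene models with HTSeq. The authors deposited raw counts per gene, not normalized, with 1 column per replicate. Versions, counting mode and strand setting are not given in the sources used here, so that reads of neighbouring or near-identical copies could have been split or left out. Columns were mapped to samples by name, and the names give time point, position and replicate.

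Levels are counts scaled by TMM over all 18 libraries to the mean library size. Tests were run in R 4.3.3 with edgeR 4.0.16 (quasi-likelihood F-test, after its filter on low counts), with Benjamini-Hochberg adjustment over all genes tested. Calls required, as in the study, an FDR under 0.01 together with a 2-fold change or more. Time was tested in the 9 libraries of each bud type, and position and its change over time in all 18 libraries as 6 groups. Standard errors were the log2 fold change divided by the square root of F. Log2 CPM had a prior count of 4. With 3 replicates per group, an exact permutation test cannot go below 0.1. On simulated counts of 19304 genes for T3 against T1 in basal buds, 94% of the 200 genes given a log2 change of 2 were called, with 0 false calls. For apical against basal buds at T3, 94% were called, with 3 false calls. Neither simulation shows how often smaller changes, nearer to the limit of 2-fold, would be called. All simulated libraries of a gene shared the same spread, so that none stood apart as apical T3 replicate 1 did. The simulated shares and false calls therefore do not cover contrasts with such a library.

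Alternatives were DESeq2 1.42.0, median-of-ratios scaling, other filters, an FDR of 0.05 whatever the fold, a test against a 2-fold change, the replicate block, other sets of libraries in the fit and each library left out. For the flowering genes, the pooled ratio of PRUPE_1G531700 and the correlation at T3, leaving out apical T3 replicate 1 was chosen after seeing the data. The members and lists were chosen with earlier results of these data known. The genes named are all the members, the flowering genes of the study, and for the 2 members with the highest counts the 2 genes most like each. The study cut both bud types of a replicate from the same shoots, which pairs apical and basal libraries of a time point if equal numbers follow the shoots. The deviations of same-numbered apical and basal libraries from their group means had correlations between -0.074 and 0.20, and 2 of the 9 pairs were over 0.1. Figures were drawn with matplotlib 3.10.9.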

Additional observations from a re-analysis of the deposited data

How the results depend on the processing

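The count of called copies was most dependent on the processing between T3 and T1. In apical buds, where 1 copy was called, the count was 2 with DESeq2, 2 with no filter on low counts, 2 with an FDR below 0.05 and no limit on the fold change, 2 with all 18 libraries in the fit, and 0 in the test against a 2-fold change. PRUPE_1G531500 was the copy gained. In basal buds, the 2 called copies became 0 in the test against a 2-fold change. Between T3 and T1, that test called 0 of all tested genes in apical and 0 in basal buds. With an FDR below 0.05 and no limit on the fold change, 5 copies were called between T5 and T3 in basal buds (3 higher and 2 lower), and 1 copy, PRUPE_1G531100, between apical and basal buds at T3. The same rule called 65.4% and 46.7% of all tested genes in these comparisons, and 0.57% between T3 and T1 in apical buds. With each library left out in turn, the count was 0 to 2 between T3 and T1 in apical buds, 0 to 1 between apical and basal buds at T3 and 0 to 1 for the difference between bud types in the change from T3 to T5. No direction of a called copy was reversed, and the cause of these differences was not tested. Median-of-ratios scaling and a filter of 0.5 CPM changed none of the 60 member results.

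With the replicate block, 58 of 60 member results were unchanged. In apical buds, PRUPE_1G531600 between T3 and T1 (log2 fold change 2.52, adjusted p = 0.028 by edgeR) and PRUPE_1G531400 between T5 and T3 (-0.99, adjusted p = 0.0053, under 2-fold) no longer passed the limits. The block changed no call between apical and basal buds. Between time points, equal numbers share only a number: the correlations of deviations were between -0.43 and 0.066 in apical and -0.13 and 0.070 in basal buds, and 2 of 9 comparisons in each matched best within their own number. There the count between T3 and T1 in apical buds was 0 with the block.

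Over all genes, 11 were called between T3 and T1 in apical buds, against 180 by DESeq2, 117 with all 18 libraries and 0 with the block. Between apical and basal buds at T5, 238 were called, against 373 by DESeq2, 157 with the block and 52 in a fit of the 6 T5 libraries alone. At T3, 1808 were called, against 749 in the fit of the 6 T3 libraries. For the change in the difference between bud types, 642 genes were called from T3 to T5 and 370 from T1 to T5, against 1046 and 701 by DESeq2 and 339 and 239 with the block. From T1 to T3 it was 13 genes, against 139 by DESeq2 and 1 with the block. With each library left out, the counts were 0 to 20 between T3 and T1 in apical buds, 587 to 783 (970 with all libraries), 1275 to 2351 and 97 to 489 between apical and basal buds at T1, T3 and T5, and 2 to 36, 386 to 825 and 194 to 406 for the changes from T1 to T3, T3 to T5 and T1 to T5. PRUPE_1G531700 had at most 10 counts per library before T5, which limits its comparisons at T1 and T3.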

Other observations

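The identifiers on either side of the locus were read after the values of the locus had been seen. PRUPE_1G531800 was lower at T5 than at T1, with log2 fold changes of -1.36 in apical buds (SE 0.14, adjusted p = 3.3e-05) and -1.15 in basal buds (SE 0.081, adjusted p = 2.4e-07), by edgeR (SE, standard error). In this comparison 12.8% of all tested genes were called lower in apical and 9.96% in basal buds. PRUPE_1G531000 was not called in any of the contrasts. Its log2 fold change between T5 and T1 was 0.24 in apical buds (SE 0.15, adjusted p = 0.22) and 0.17 in basal buds (SE 0.058, adjusted p = 0.022). Between T3 and T1, neither of them was called in either type of bud, where 0.056% of all tested genes in apical and 1.05% in basal buds were.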
